A study of Danio rerio with 24 samples.

Results

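The clutch of mother 1, 5 single mature, unfertilized zebrafish eggs, was set against the 19 eggs of 4 other mothers, and these 24 eggs make up the whole series. The deposited sample titles give the mother of each egg and decided which eggs belong to the clutch. The mothers were sisters of the genotype wt ABTL that were briefly anesthetized with Tricaine before their eggs were squeezed out, and no group had a treatment of its own. Mothers 2, 3 and 4 gave 5 eggs each and mother 5 gave 4. The age of the fish was not given in the sources used here. The RNA of each egg was polyadenylated, depleted of ribosomal RNA, amplified and labelled with Cy3, and it was hybridized beside a Cy5-labelled reference pooled from eggs. Each clutch came from 1 fish, so what belonged to mother 1 as an individual, to its clutch and to the handling of that clutch cannot be told apart.

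A fish egg carries a large store of messenger RNA and protein that the mother makes during oogenesis. Transcription is shut down in the mature egg, and the first cell cycles and the first patterning events run on this maternal supply. The embryo's own genome becomes active only at the mid-blastula transition, by which time many maternal transcripts are being cleared. Each level below is a signal from the RNA of 1 egg and is read as that of a stored transcript. RNA of other cells that may cling to an egg was not separated from it.

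Levels are given as the log2 of the quantile normalized Cy3 signal, so that a difference of 1 is a doubling. Of the transcript probes of the main design, 26751 were called expressed and were tested. The probe, and not the gene, is the unit of all counts, because the tables used here, which were shortened copies, pair only 3331 of the expressed probes with a gene symbol. Counts by gene list and by chromosome therefore cover only the rows at hand. For mother 1, the lowest signal that the scanner software marked as well above background averaged 6.46 on the log2 scale.

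Before any comparison, egg 1 of mother 1 stood apart from its sisters. The raw Cy3 signal of its array averaged 7.19 on the log2 scale, against 6.66, 6.71, 6.83 and 6.74 for eggs 2 to 5, and 24774 of its probes were called present, against 18135 to 21814 in its sisters. The root mean square distance of egg 1 to its sisters averaged 0.466 on the log2 scale, while its distance to the eggs of mother 4 averaged 0.431 and that to the eggs of mother 5 averaged 0.436. Its nearest egg was egg 4 of mother 4. The other 4 eggs of mother 1 each had a sister as the nearest egg. Eggs of the other mothers spanned raw averages of 6.60 to 7.48 on the log2 scale, and the part of brightness in the results below was not tested beyond the alternatives given in the closing section.

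The spread among the eggs of mother 1 was the widest of the 5 clutches. Without egg 1 it was still the widest by distance, by little, but not by the SD of a probe. No egg was left out of the other clutches for this. The mean distance between 2 of its eggs was 0.415, and 0.380 without egg 1, against 0.363 (mother 2), 0.377 (mother 3), 0.270 (mother 4) and 0.235 (mother 5). The median SD of a probe over the eggs of mother 1 was 0.209, and 0.183 without egg 1, against 0.197, 0.191, 0.143 and 0.128 in mothers 2 to 5. Between clutches, the eggs of mother 1 were nearest to those of mother 5, at a mean distance of 0.436, followed by mother 4 at 0.504, mother 2 at 0.563 and mother 3 at 0.603. The distance of mother 1 to mother 5 was thus close to the distance among the sisters of mother 1, as the plot of distances by egg shows.

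**Figure D1:**
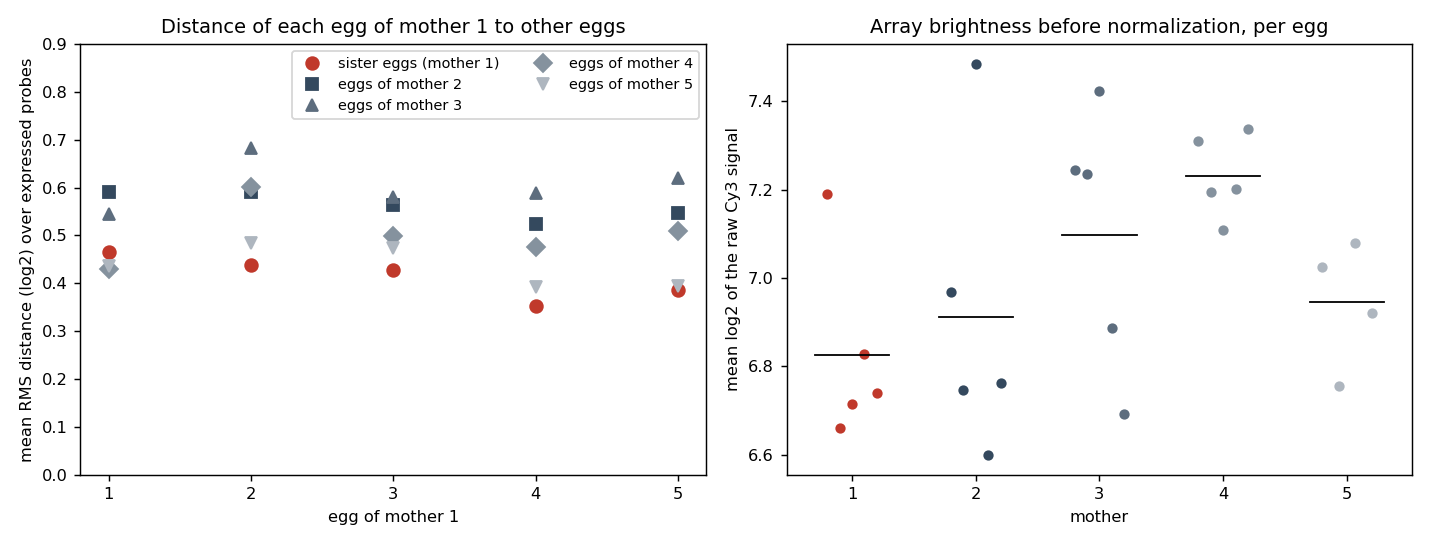
Left, mean root mean square distance (log2) of each egg of mother 1 to its sister eggs and to the eggs of each other mother, over the 26751 expressed probes. Right, mean log2 of the raw Cy3 signal of each array, with 1 point per egg and a bar for the mean of each mother; egg 1 of mother 1, at 7.19, lies above its 4 sisters, and its distance to mothers 4 and 5 is below its distance to its own sisters.

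Against the mean of the other 4 mothers, 5442 probes of mother 1 passed the limma contrast at an adjusted p of 0.05, which is 20.3% of the probes tested. Of these, 2333 were higher in mother 1 (8.72%) and 3109 were lower (11.6%). Higher in mother 1 were thus 42.9% of the called probes, a share that was 9.33% of the 193 probes called when each array was centred on its median. Most of the differences were small, with a median size of 0.39 on the log2 scale or 1.31-fold, and 282 probes (5.18% of those called) differed by more than 2-fold, 141 of them higher and 141 lower. The same contrast on the Cy5 reference, which holds no RNA of mother 1 in particular, called 0 probes with limma, and 302 (1.13%) had an unadjusted p below 0.05. Taken mother by mother, mother 1 differed from mother 2 at 27.8% of the probes, from mother 3 at 32.1%, from mother 4 at 23.4% and from mother 5 at 10.8%.

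A difference from the mean of 4 mothers need not set mother 1 apart from each of them. Among the 5442 called probes, 430 passed all 4 of the pairwise contrasts, 1521 passed 3, 2579 passed 2, 894 passed 1 and 18 passed none. Mother 1 lay on 1 side of every other mother, with each pairwise contrast past the threshold, at 334 probes (1.25%), 169 of them higher (0.632%) and 165 lower (0.617%). At 188 probes (0.703%) no egg of mother 1 overlapped with any of the other 19 eggs, with 83 higher (0.31%) and 105 lower (0.393%). Of these 188 probes, 163 also passed the 4 pairwise contrasts. The gap between the nearest eggs was mostly narrow, with a median of 0.14 on the log2 scale, and it reached 1 or more at 8 probes. The same count made for each other mother in turn gave 1067 probes for mother 2, 1122 for mother 3, 845 for mother 4 and 497 for mother 5, so mother 1 was the clutch with the fewest probes of its own. Without egg 1 of mother 1, the contrast called 6590 probes (24.6%), 471 (1.76%) were apart from each other mother, and 395 (1.48%) were without overlap, all 188 included, which the smaller number of eggs makes easier.

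At the 83 probes where mother 1 was highest without overlap, the mother next in level was mother 4 at 32 probes, mother 5 at 24, mother 3 at 17 and mother 2 at 10. Below all others, at 105 probes, the next mother was mother 5 at 46, mother 2 at 23, mother 4 at 20 and mother 3 at 16. With mother as a random block in limma, 33 probes passed, and all 33 were among the 188 without overlap. This fit used 1 correlation between sister eggs, 0.47, for all probes. It still counted single eggs, so it is not a test over the 5 mothers. In an exact permutation over the 5 mothers alone the smallest p that 1 mother against 4 can reach is 0.2, so no such test could pass.

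The genes named next are the 12 highest and the 12 lowest of mother 1 by the width of this gap, among the 80 genes with a symbol and no overlap (35 higher and 45 lower). Of the 24, 20 are paired with a symbol only through a table of mother-specific genes that the study drew from these same eggs, as are 64 of the 80, so which genes bear a name is itself a choice on these data. Each of the 24 was apart from all 4 other mothers in the pairwise contrasts, and each adjusted p given with them is that of the limma contrast against the mean of the other mothers. Values of mother 1 are in the order of eggs 1 to 5. When each array was centred on its median in place of quantile normalization, 14 of the 24 no longer passed the contrast, and with mother as a random block 9 did not. The sizes moved as well. Under that centring, which moved the median of the expressed probes by -0.54 on the log2 scale, the difference was 0.40 for atpaf1 (adjusted p = 0.383), 0.40 for fbxo25 (adjusted p = 0.362) and 0.17 for si:dkey-286j15.3 (adjusted p = 0.748), while it was -1.57 for pex10 and -1.68 for kbtbd8. With the background-subtracted signal scaled to the 75th percentile, dim genes differed by more, as cxxc1a at -3.35 and il15l at -3.45.

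Several of the 24 encode proteins of mitochondria, peroxisomes and carbohydrate metabolism, and they lay on both sides. The transcript of atpaf1, a factor that assembles the F1 part of the mitochondrial ATP synthase, measured 10.87, 10.85, 11.08, 10.91 and 10.94 in mother 1, while the other eggs ran from 9.26 through a median of 9.77 up to 10.09. It was 2.35-fold higher in mother 1 (log2 difference 1.24 ± 0.09, SE; adjusted p = 2.77e-10). All 5 eggs of mother 1 lay above every other egg, by 0.77 at the nearest. For apoa1bp (ENSDARG00000058806), listed as NAXE in the gene name table and known as the epimerase that repairs damaged NAD(P)H, mother 1 had 10.78, 10.83, 10.77, 10.62 and 10.61, against 6.38 to 10.13 in the others with a median of 9.47. Here the other mothers fell into a high and a low pair, mothers 2 and 4 at means of 9.72 and 9.86 and mothers 3 and 5 at 6.70 and 6.63. Mother 1 was 2.00-fold and 1.82-fold above the high pair (adjusted p = 3.40e-16 against the mean of all 4). The low pair lay near the background, well above it in 4 of 5 eggs of mother 3 and 2 of 4 of mother 5, and no fold is given against it.

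On the low side, chchd6b, a member of the complex that shapes the inner mitochondrial membrane, measured 9.39, 9.68, 9.60, 9.77 and 9.38 in mother 1, against 10.34 to 11.07 in the other eggs with a median of 10.61 (log2 difference -1.04 ± 0.08, SE; adjusted p = 7.79e-10). For pex10, a ubiquitin ligase of peroxisome formation, the eggs of mother 1 had 9.87, 10.11, 9.79, 10.17 and 9.81, and the others 10.49 to 11.11 with a median of 10.76 (-0.84 ± 0.07, adjusted p = 1.27e-09). A transporter of glucose 6-phosphate into the endoplasmic reticulum, slc37a4b, measured 7.56, 7.25, 7.53, 7.48 and 7.14 in mother 1 and 7.92 to 9.32 in the others, with a median of 8.63. That gap was narrow, since mother 2 (mean 8.14) reached down to 7.92, and the difference was -1.15 ± 0.11 (SE; adjusted p = 4.02e-08).

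Regulators of transcription and chromatin also stood on both sides. In mother 1, znhit1, a subunit of the complex that places the histone variant H2A.Z in human cells, measured 10.07, 10.05, 9.52, 10.07 and 9.91, against 7.78 to 8.89 in the other eggs with a median of 8.35, or 2.93-fold higher (adjusted p = 4.97e-10). Egg 3 was the lowest of the clutch and still lay 0.63 above the highest other egg. The retinoid X receptor gene rxrga (ENSDARG00000005593), whose product pairs with other nuclear receptors on DNA, had 9.19, 9.75, 9.87, 9.71 and 8.95 in mother 1, against 6.27 to 8.51 in the others with a median of 6.67. Only mother 5 came near, with a mean of 8.30, and mother 1 was 2.29-fold above it (adjusted p = 2.76e-12 against the mean of the other mothers). Mothers 2, 3 and 4 lay near the background, at means of 6.80, 6.69 and 6.53. In each of them 4 of 5 eggs were well above it, and no fold is given against them. The zinc finger factor klf2a, known from blood vessels under flow, measured 8.75, 8.27, 8.61, 8.24 and 8.64 in mother 1 and 6.61 to 7.86 in the others, with a median of 7.22 (2.38-fold higher, adjusted p = 1.62e-08).

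The opposite held for cxxc1a (ENSDARG00000016187), which belongs to the family that binds unmethylated CpG in DNA. It measured 6.67, 6.55, 6.48, 6.52 and 6.51 in mother 1, close to the background, and was well above it in 1 of these 5 eggs, whereas the other eggs ran from 7.75 to 9.04 with a median of 7.95 and all 19 were well above background. The difference was -1.64 ± 0.07 (SE; adjusted p = 3.45e-15), and mother 3, at a mean of 8.85, was the farthest from mother 1.

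Genes of ubiquitin transfer and of immune signalling made up a further group. The finTRIM gene ftr24 (ENSDARG00000008396), from a family of tripartite motif proteins that is expanded in fish, had the widest gap of the paired genes. It measured 9.72, 9.71, 9.61, 9.59 and 9.57 in mother 1, against 7.12 to 8.17 in the others with a median of 7.75, or 3.74-fold higher (log2 difference 1.90 ± 0.10, SE; adjusted p = 9.89e-13). Its 5 eggs were nearly level with each other. For fbxo25, an F-box protein that picks substrates for ubiquitin ligases, mother 1 had 11.15, 10.84, 11.13, 11 and 10.92, and the others 8.41 to 10.41 with a median of 10.11 (2.30-fold higher, adjusted p = 1.39e-11). Mother 3 alone was low on this gene, at a mean of 8.58, and mothers 2, 4 and 5 lay at 10.07, 10.32 and 10.26, so that mother 1 was 1.62-fold to 1.91-fold above these 3 and 5.39-fold above mother 3.

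Other genes of this group were lowest in mother 1. An adaptor of a CUL3 ubiquitin ligase, kbtbd8, measured 11.24, 11.21, 11.44, 11.13 and 11.24, against 11.71 to 12.49 with a median of 12.14 in the others (-0.90 ± 0.06, adjusted p = 9.54e-11). The toll-like receptor adaptor ticam1 had 7.18, 6.96, 6.81, 7 and 6.98 in mother 1 and 7.96 to 9.29 in the others, with a median of 8.40 (-1.40 ± 0.12, adjusted p = 5.32e-09). The interleukin gene il15l was not well above background in any egg of mother 1, at 6.20 to 6.27, while the other eggs measured 6.5 to 7.88 with a median of 7.09. With mother 1 set at the lowest signal well above background, il15l was 1.70-fold lower than in the mean of the others (adjusted p = 4.55e-09). The nearest were the eggs of mother 2, at a mean of 6.79. Only 3 of 5 eggs of mother 2 and 4 of 5 of mother 3 were well above background on il15l. That fold thus rests in part on signal at the background.

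The remaining paired genes have other or unnamed roles. In mother 1, ankrd55 (ENSDARG00000053869), which encodes an ankyrin repeat protein, measured 7.64, 7.56, 7.34, 6.94 and 7.56, against 8.71 to 9.98 in the others with a median of 9.16, or 3.75-fold lower (adjusted p = 3.63e-11). The spartin gene spg20b, of lipid droplets and endosomes, was not well above background in any egg of mother 1, at 6.10 to 6.29. It lay between 6.99 and 7.75 in the others. With mother 1 set at the lowest signal well above background, spg20b was 1.87-fold lower than in the mean of the others (adjusted p = 3.57e-10). Carboxypeptidase M (cpm) had 8.39, 8.05, 8.32, 7.97 and 7.66 in mother 1, against 8.71 to 9.63 with a median of 9.19 (-1.10 ± 0.12, adjusted p = 2.64e-07). The smallest difference among the 24 was that of zfyve19, a FYVE finger gene of the abscission checkpoint in human cells, with 11.10 to 11.35 in mother 1 and 11.62 to 12.18 in the others (-0.55 ± 0.07, adjusted p = 1.42e-06). The acid-sensing ion channel gene asic1b lay at 7.76 to 8.14 in mother 1 and at 6.76 to 7.40 in the others (0.83 ± 0.09, adjusted p = 1.03e-07).

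Among the genes without an assigned role, zgc:194551 (ENSDARG00000077903) was the most even across the other clutches. Mother 1 had 9.19, 9.07, 9.49, 9.39 and 9.34, while the means of mothers 2 to 5 were 7.64, 7.53, 7.50 and 7.46, and mother 1 was 3.15-fold to 3.56-fold higher than each (adjusted p = 8.10e-15). For zgc:173544 the eggs of mother 1 measured 8.60, 8.87, 8.03, 8.76 and 8.73, and the others 6.34 to 7.17 with a median of 6.84 (3.57-fold higher, adjusted p = 1.03e-13). On this gene only 2 of 4 eggs of mother 5 were well above background. Mother 1 was also highest on si:dkey-103k4.1, at 7.79 to 8 against 6.15 to 7.29 (2.24-fold, adjusted p = 6.37e-12). There no egg of mother 4 was well above background, so that fold rests in part on signal at the background. The same held in direction for si:dkey-286j15.3, at 10.93 to 11.39 in mother 1 against 9.56 to 10.61 (1.98-fold, adjusted p = 9.66e-08). Mother 1 was lowest on si:dkey-222p3.1, at 6.17 to 6.48, well above background in 1 of 5 eggs, against 6.80 to 7.79 (-1.0 ± 0.08, adjusted p = 5.69e-10). The authors' tables list cross-hybridizations for the probes of 15 of the 24 genes, up to 9 for si:dkey-103k4.1.

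**Figure D2:**
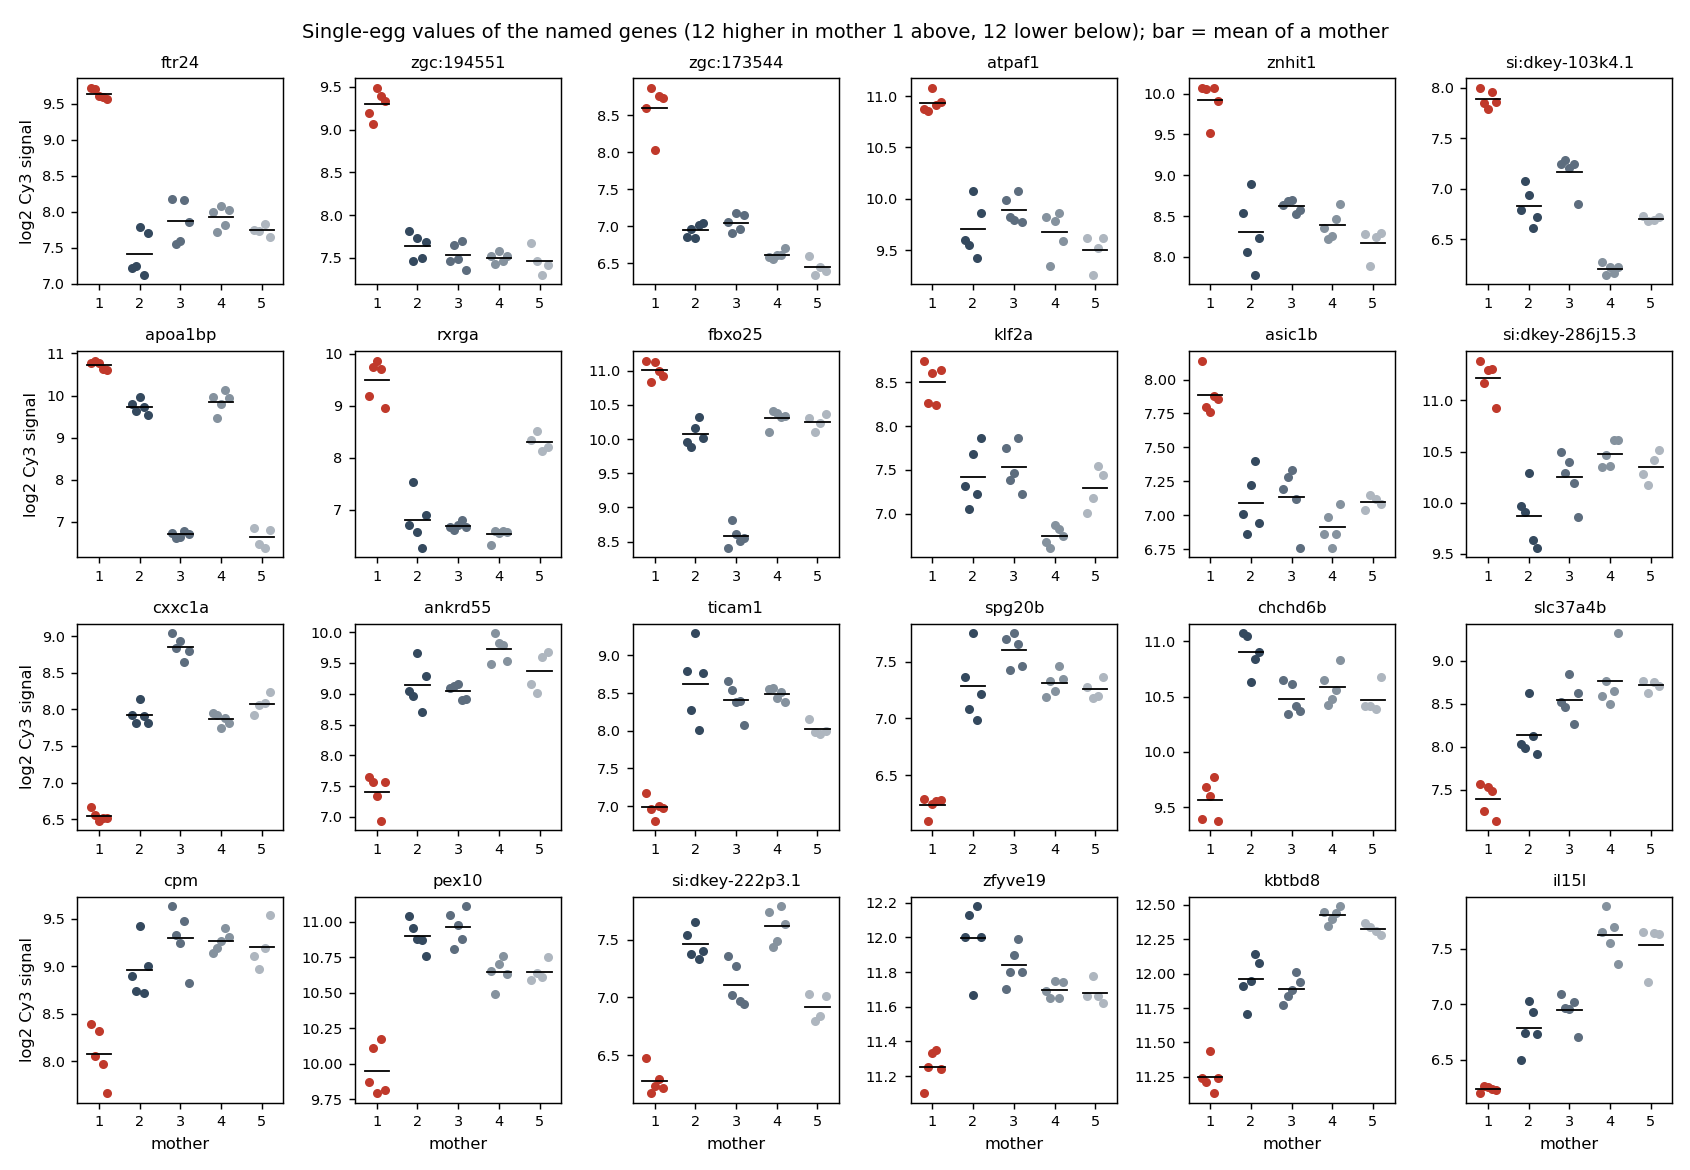
Log2 Cy3 signal of every egg (points) by mother, with a bar for the mean of each mother, for the 12 genes highest (upper rows) and the 12 lowest (lower rows) in mother 1 without overlap. The vertical axis differs between panels and does not start at 0; on apoa1bp and rxrga the other mothers themselves lie at different levels, while on ftr24 and zgc:194551 they lie close together.

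The widest gaps belonged to probes that the tables used here do not pair with a gene. Probe MAD_Dr_004_190024 measured 11.51, 11.52, 11.64, 11.4 and 11.23 in mother 1, against 6.44 to 7.22 in the other eggs with a median of 6.64. Its log2 difference was 4.73 ± 0.11 (SE; adjusted p = 1.17e-19) and its gap 4.01, the widest of the 188. The other eggs lay near the background, well above it in 4 of 5 eggs each of mothers 2 and 3. In mother 4 all 5 eggs were well above it and in mother 5 only 2 of 4. The size of the difference thus rests in part on signal at the background. A probe was tested when present on at least 4 arrays, so the 5 eggs of mother 1 alone can admit one that is high there. Its p-value and gap are not independent of that filter. In the other direction, probe MAD_Dr_004_108881 measured 6.69, 6.78, 6.34, 6.32 and 6.78 in mother 1, well above background in 1 of 5 eggs, and lay between 9.50 and 10.17 in the others, a gap of 2.72. Of the 8 probes with a gap of at least 1, 4 carry a symbol.

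Gene lists were read through 2 tables that together pair 2136 expressed probes with a symbol, a list of expressed genes and a list of genes that the study called different between clutches on these same eggs. Of these, 427 passed the contrast (19.99%), 174 higher and 253 lower, against 20.3% of all expressed probes. The list of expressed genes, which was not chosen on differences between mothers, pairs 1698 of them, and 312 passed (18.4%). Of the 438 paired only through the other list, 115 passed (26.3%). Counts of called members are thus not independent of the study's own choice. The stored germ plasm and mRNA-handling genes, 21 expressed probes, held 0 that passed limma (6 had an unadjusted p below 0.05), with log2 differences between -0.21 and 0.32. These include piwil1 and tdrd5 of the germ line small RNA pathway, nanos1, the polyadenylation factor cpeb1b, and the RNA-binding genes igf2bp3 and rbpms2b. Both npm2a and npm2b, nucleoplasmins that decondense sperm chromatin, lay within 0.11 of the mean of the other mothers. Of the 4 probes of the mitochondrial genome 0 passed limma, and 0 had an unadjusted p below 0.05. Of 28 probes of translation factors 1 passed (3.57%).

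Ribosomal protein genes of the cytosol, among the brightest on the arrays, mostly lay at the level of the other clutches, with a median difference of 0.00 over 67 probes. Of these, 5 were higher and 2 lower in mother 1, or 10.4% called, against 20.3% of all expressed probes. Without egg 1 of mother 1, when 24.6% of all expressed probes were called, 8 were higher and 5 lower. Through the list of expressed genes alone 2 were higher and 1 lower of 52 (5.77%, against 18.4% of that whole list). The stalk protein genes rplp2 and rplp1 rose by 0.78 ± 0.19 and 0.41 ± 0.10 on the log2 scale (SE; adjusted p = 0.00393 and 0.00557), while rps25 fell by 0.33 on the log2 scale in mother 1. No probe of this list was apart from each other mother. On rplp2 mother 5 was the lowest at a mean of 12.54, while mother 2 averaged 13.58 and mother 1 13.95.

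Mitochondrial ribosome genes were called at 8 of 28 probes (28.6%, against 20.3% of all), 6 higher and 2 lower. The counts were the same without egg 1, when 24.6% of all expressed probes were called. They included mrps14 (0.59 ± 0.10, adjusted p = 0.00015) and mrps25 (0.52 ± 0.10) on the high side and mrps21 (-0.60 ± 0.09) on the low side. No probe of this list was apart from each other mother. On mrps21 mother 5 averaged 11.98, against 11.93 in mother 1. On mrps14 mothers 2 and 5 averaged 11.43 and 11.44, against 11.68 in mother 1. Of 46 probes of oxidative phosphorylation, 1 was higher and 5 were lower (13.04% called, against 20.3% of all). Without egg 1 of mother 1, 3 were higher and 4 lower. The lowest, ndufb11 of complex I, was not well above background in any egg of mother 1 (mean 6.24), as in mothers 4 and 5 (6.19 and 6.31), but lay at 8.09 and 9.15 in mothers 2 and 3. Thus the contrast marked a gene on which mother 1 stood with 2 of the 4 others.

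Cell cycle genes gave 2 higher and 4 lower of 37 probes (16.2%, against 20.3% of all). Without egg 1 they gave 4 higher and 5 lower, when 24.6% of all were called. The activator of the anaphase-promoting complex cdc20, which lets chromosomes part, measured 11.9 in mother 1 (SD 0.28, n = 5), against 12.7, 12.6, 13.1 and 12.8 in mothers 2 to 5, and passed all 4 pairwise contrasts (-0.84 ± 0.11, adjusted p = 5.48e-06). A phosphatase of cyclin-dependent kinases, cdkn3, lay at 11.63 to 11.82 in mother 1 without overlap with the others, at 11.94 to 12.45 (-0.39 ± 0.06, adjusted p = 4.73e-05). The checkpoint kinase gene atr fell by 0.66 ± 0.09 (adjusted p = 5.40e-06), but it was not apart from each other mother. It was 1 of 2 DNA replication and repair probes of 32 that passed (6.25%), both lower. Among patterning signals, 3 of 20 probes were higher and 2 lower (25% called, against 20.3% of all). The formin gene daam1b of planar polarity was apart from each other mother (-0.72 ± 0.12, adjusted p = 4.62e-05), at a mean of 6.73 that was well above background in 1 of 5 eggs. The receptor gene bmpr2a rose by 0.71 ± 0.08, with a mean of 10.49 in mother 1, but mother 4 lay at 10.53.

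Solute carriers and channels were called at 13 of 39 probes (33.3%, against 20.3% of all), 3 higher and 10 lower. Through the list of expressed genes alone 6 of 26 were called (23.1%, against 18.4% of that whole list), 0 higher and 6 lower. The mitochondrial carrier slc25a25a was among the brightest, at 13.75, 13.61, 13.35, 13.56 and 13.64 in mother 1 and 13.78 to 14.45 in the others, without overlap (-0.57 ± 0.06, adjusted p = 4.83e-08). Immune signalling genes were called at 9 of 23 probes (39.1%, against 20.3% of all), 3 higher and 6 lower. Through the list of expressed genes alone they were called at 4 of 14 (28.6%, against 18.4% of that whole list), 3 higher and 1 lower. The largest of these, the complement gene c7b, is described below among the shared levels. Chromatin genes gave 1 higher and 6 lower of 48 (14.6%), and vesicle traffic genes 3 and 6 of 51 (17.6%). Ubiquitin and proteasome genes gave 5 and 4 of 48 (18.8%), and splicing genes 1 and 2 of 32 (9.38%). Each of these shares was below the 20.3% of all expressed probes. Among the lists with at least 20 probes, the median difference farthest from 0 was that of the patterning signals, at 0.08 on the log2 scale, against -0.02 over all expressed probes.

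**Figure D3:**
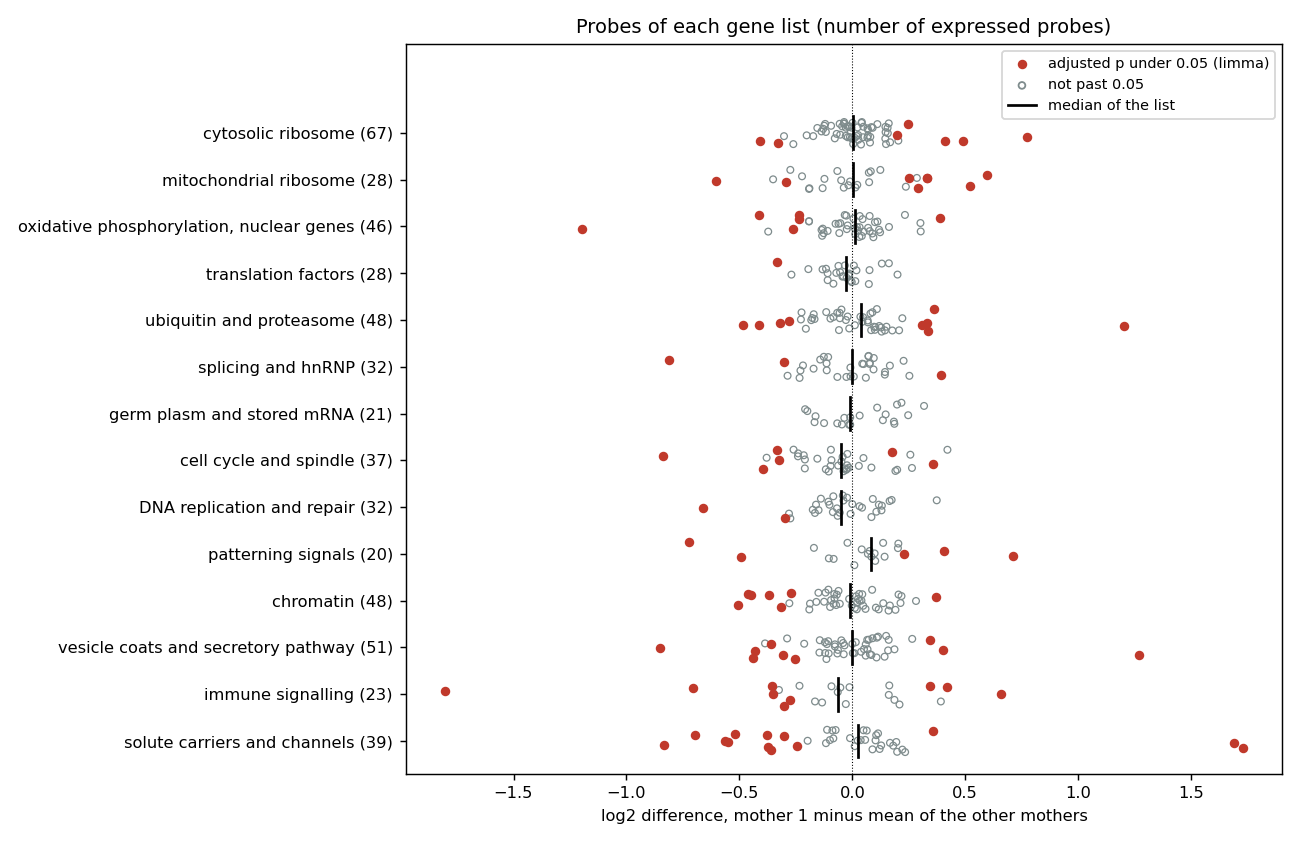
Log2 difference between mother 1 and the mean of the other mothers for each expressed probe of a gene list (points; filled where the adjusted p of limma is under 0.05), with a bar for the median of each list. The list medians lie near 0, and the called probes of most lists fall on both sides.

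Mother 1 shared a high or a low level with some of the other mothers at many probes. Mother 1 alone is a single pattern among the many ways to split the mothers, so counts of shared levels cannot be set against it. A search after the values were seen took every probe on which mother 1, alone or with other mothers, was separated from the remaining mothers by at least 1 on the log2 scale, with every egg counted. It gave 297 probes (1.11% of those expressed), 3 of them with 2 such separations. Mother 1 stood alone at 8. It stood with mothers 4 and 5 against mothers 2 and 3 at 56 probes, with mothers 2, 4 and 5 against mother 3 at 78, and with mothers 3, 4 and 5 against mother 2 at 52. Over the 300 separations, 236 (78.7%) had mother 5 on the side of mother 1, 218 (72.7%) mother 4, 146 (48.7%) mother 2 and 121 (40.3%) mother 3. These shares include the separations on which 1 other mother stood alone, mother 3 at 78, mother 2 at 52, mother 4 at 28 and mother 5 at 10. They therefore partly restate how often each other mother stood alone.

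Some of these genes were near background in one set of mothers and bright in the other. Paxillin (pxna), an adaptor of cell adhesion sites, measured 10.32, 9.82, 10.02, 10.09 and 10.14 in mother 1 and lay between 10.08 and 10.50 in mothers 4 and 5, but between 6.42 and 6.81 in mothers 2 and 3. The glutamate transporter gene slc1a3a, listed as SLC1A7 in the gene name table, was alike, at 9.30 to 9.63 in mother 1 and 6.13 to 6.51 in mothers 2 and 3. The complement component c7b ran the other way, at 6.61, 6.67, 6.18, 6.32 and 6.26 in mother 1, with mothers 4 and 5 between 6.29 and 7.20, and mothers 2 and 3 between 9.40 and 10.60. Low in the same 3 clutches were rnaset2, a ribonuclease gene, at 7.01 to 7.91 in mother 1, and olfm1b, an olfactomedin gene, at 6.12 to 6.43.

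Other pairings of mother 1 were rarer. With mother 5 alone, zgc:113340, which the gene name table lists as sertad3, was low at 6.43 to 7.19 in mother 1 while mothers 2, 3 and 4 lay between 10.93 and 11.97 and the highest egg of mother 5 reached 8.44. With mother 4 alone, pold3, a subunit of DNA polymerase delta, was low at 6.26 to 6.97, and mothers 2, 3 and 5 lay between 9.33 and 10.76. With mother 2 alone, cecr1a, an adenosine deaminase gene listed as ADA2, was low at 6.48 to 7.08. The Golgi tether gene cog5 was high in mothers 1, 2 and 3, at a mean of 8.90 in mother 1, and at 6.17 to 6.61 in mothers 4 and 5. The lysosomal protease cathepsin B (ctsba), which takes part in yolk processing, was bright in mother 1, at 14.21 to 15.25, and in mothers 2 to 4, but lay at 8.28 to 11.45 in mother 5.

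**Figure D4:**
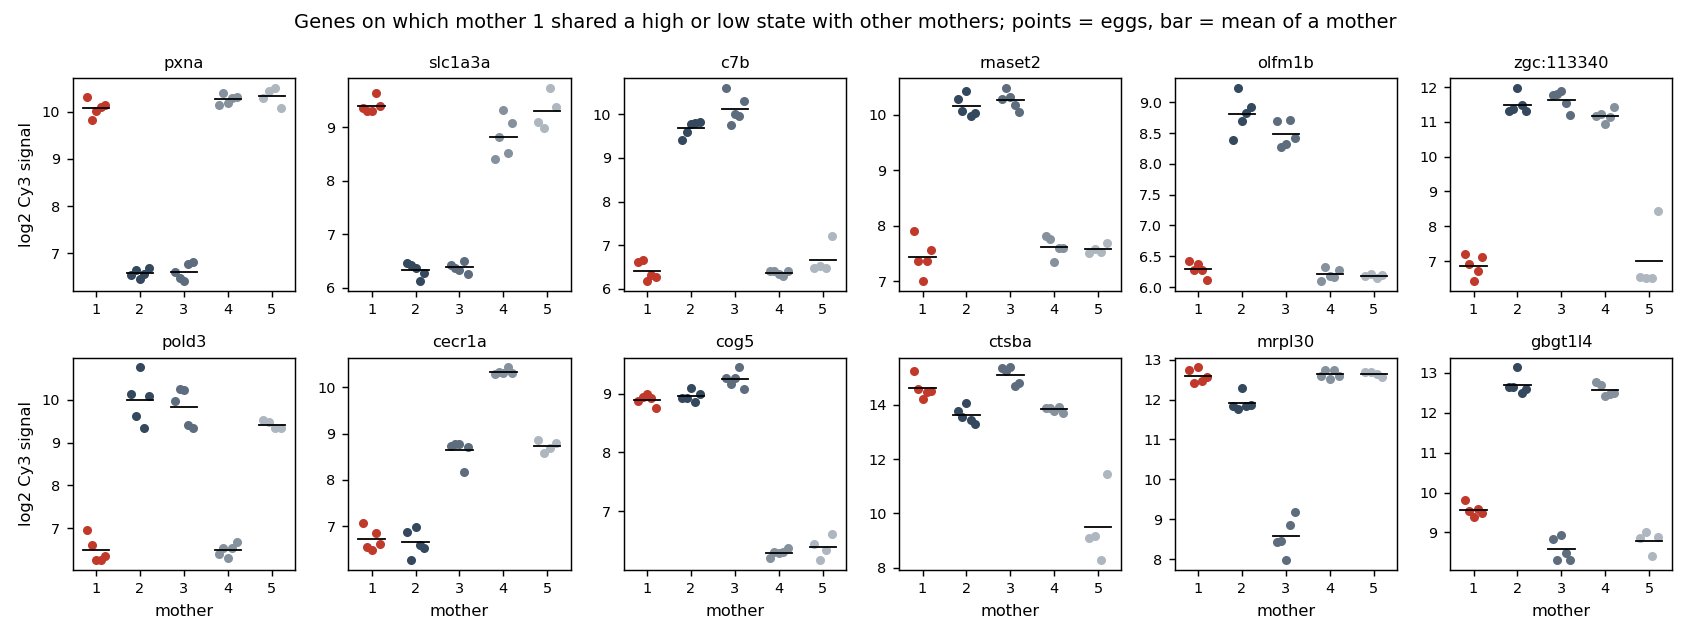
Log2 Cy3 signal of every egg (points) by mother, with a bar for the mean of each mother, for genes on which mother 1 shared a high or a low level with other mothers, separated by at least 1 from the rest. The vertical axis differs between panels; pxna and c7b show mothers 1, 4 and 5 on one side and mothers 2 and 3 on the other.

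Within the clutch of mother 1, single eggs strayed from their sisters at few probes. Egg 2 lay more than 1 above all 4 sisters on the log2 scale at 95 probes, against 4 to 8 for each other egg, and egg 1 lay more than 1 below all 4 at 42, against 1 to 6. Egg 2 had the dimmest array of the clutch and egg 1 the brightest. The other clutches were mixed. The dimmest array of mother 3 (egg 5) lay alone high at 539 probes, and the brightest of mother 2 (egg 3) alone low at 285. In mother 4 the dimmest (egg 3) was alone high at 21 and the brightest (egg 5) alone low at 15, the most of that clutch. But the dimmest of mother 2 (egg 4) was alone high at 14, against 58 for egg 2. The brightest of mother 3 (egg 3) was alone low at 6, against 9 for egg 4. The dimmest of mother 5 (egg 2) was alone high at 11, against 23 for egg 4. None of the 95 probes carries a symbol, and the part of brightness was not tested. The study removed genes whose signals ran against its scaling of the arrays, which it took to be polyadenylated already. Their probes could not be matched here, so whether they are among the probes counted above was not tested. The paired genes on which egg 1 was lowest by the widest margin included several of mitochondria. The mitochondrial ribosome gene mrpl39 measured 8.23 in egg 1 and 9.78, 9.77, 9.31 and 9.55 in eggs 2 to 5, and ndufa13 of complex I measured 10.66 in egg 1 and 11.75, 12.04, 11.86 and 11.64 in its sisters. Over the whole lists, egg 1 was the lowest of the 5 on 11 of 28 mitochondrial ribosome probes (39.3%) and 26 of 67 cytosolic ones (38.8%), against 21.9% of all expressed probes. On oxidative phosphorylation egg 1 was lowest at 14 of 46 (30.4%, against 21.9% of all) and highest at 11 (23.9%, against 32.7% of all). Egg 5 was lowest on 21 of 46 probes of oxidative phosphorylation (45.7%) and 10 of 28 of the mitochondrial ribosome (35.7%), against 19.5% of all. Egg 3 was highest on 30 of 67 cytosolic ribosome probes (44.8%) and 20 of 46 of oxidative phosphorylation (43.5%), against 22.7% of all. These are counts over probes of the same 5 arrays, which share brightness and normalization, and no test was made of them.

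Markers of the egg were bright in mother 1. All 8 paired egg and oocyte markers were expressed, and in mother 1 rbpms2b averaged 14.7, npm2b 14.1, igf2bp3 11.8, npm2a 11.2, piwil1 9.92, cpeb1b 9.52, tdrd5 8.81 and nanos1 7.21, with 0 of the 8 past the limma threshold and 1 with an unadjusted p below 0.05. Their summed signal was 15.57 to 15.96 on the log2 scale in mother 1 and 15.40 to 15.79 in the others. Follicle cells surround the growing oocyte and could cling to a squeezed egg, and 4 of 11 of their markers are paired. The steroid enzyme gene hsd3b1 averaged higher in mother 1 (mean 8.06 against 7.51; adjusted p = 3.49e-05) and cyp11a1 averaged lower (10.97 against 11.42; adjusted p = 0.00693). Both overlapped with the other clutches. On hsd3b1, mother 1 spanned 7.75 to 8.36 and the others 6.12 to 8.42. Its probe was well above background on 19 arrays in all, 5 of them of mother 1. The lower mean of the others thus rests in part on signal at the background. The probes of hsd3b1 and lhcgr are paired only through the table of mother-specific genes. The kit ligand gene kitlga averaged 8.27 and 7.95, and lhcgr was not well above background in any egg of mother 1. Summed, the 4 ranged from 11.1 to 11.7 in mother 1 and from 11.1 to 12.3 in the others, and their part in the results was not tested. Defining markers of the follicle cell such as cyp19a1a, foxl2 and gsdf are not paired in the tables used here. The globin genes hbae1 and hbae3 of blood were not called expressed. On both probes of hbae1, egg 4 of mother 1 measured 7.57 and 7.58, against 6.18 to 6.48 in its sisters and at most 6.77 in the others. On hbae3 the same egg was the lowest of its clutch, at 6.20, and the eggs of the other mothers reached 7.57. Of the muscle and gut markers, mylpfb (8.49 against 8.35) and try (10.02 against 10.09) were near the level of the other clutches, and prss59.1 was not called expressed.

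By position, chromosome 22 held more of the genes of mother 1 than the other chromosomes. Of the 80 genes without overlap, 67 have a position on the Zv9 genome build in the authors' tables, and 13 of these (19.4%) lie on chromosome 22, against 4.40% of the 2771 expressed probes with a position. No other chromosome held more than 5. On chromosome 22, mother 1 was higher at 9 genes and lower at 4. They are spread over the chromosome, from zgc:113886 (positions 1283689 to 1290245) through dpp4 (11598872 to 11618640), klf2a (15871951 to 15874649) and atpaf1 (17166497 to 17175590) to zgc:194551 (26653862 to 26664323) and si:dkey-103k4.1 (30585874 to 30596781). Highest of them in signal was zgc:113886, at 11.70, 11.36, 11.45, 11.55 and 11.72 in mother 1 and 6.44 to 11.05 in the others. The pattern was seen in the values before it was counted, and no test was made of it. All 13 are paired only through the table of mother-specific genes. In the table of expressed genes, which was not drawn from such genes, 13 of 69 positioned probes of chromosome 22 passed the contrast, against 18.6% of all 1590. The same share of genes without overlap on chromosome 22 was 1.13% for mother 2, 6.48% for mother 3, 12.03% for mother 4 and 2.31% for mother 5.

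**Figure D5:**
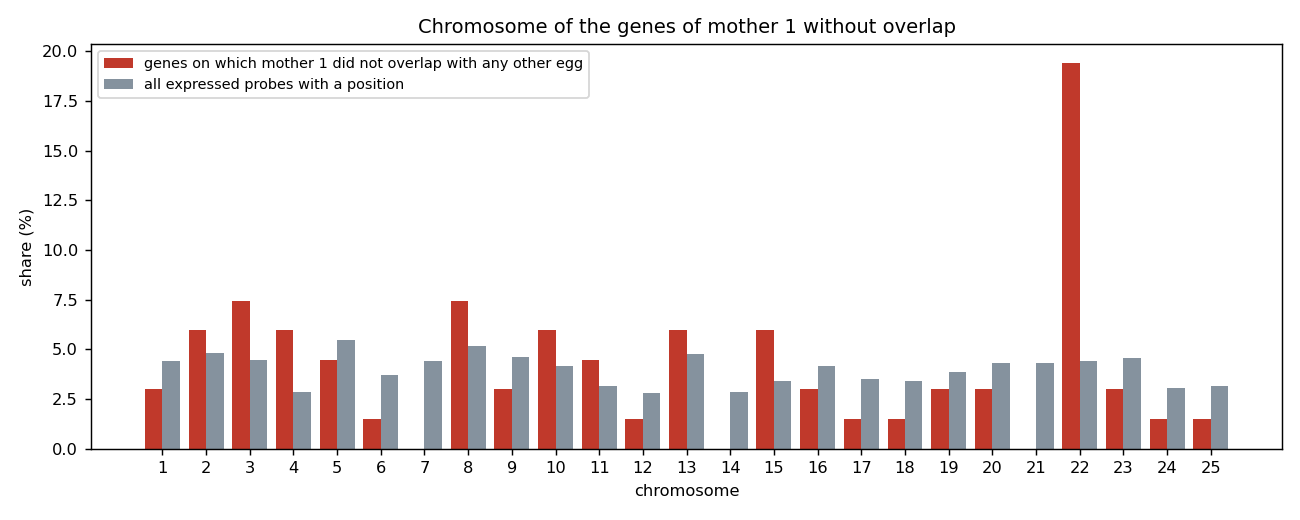
Share (%) of the 67 positioned genes on which mother 1 did not overlap with any other egg, by chromosome (left bar of each pair), beside the share of all 2771 expressed probes with a position (right bar). Chromosome 22 holds 13 of the 67, or 19.4%, against 4.40% of all.

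Elsewhere the genes of mother 1 were scattered, with ftr24 (47990797 to 48069643) and rxrga (21067741 to 21118869) on chromosome 2, znhit1 (38004724 to 38012463) on chromosome 5, chchd6b (1542217 to 1562292) on chromosome 6 and apoa1bp (7489310 to 7493722) on chromosome 19. Only 2 pairs of genes without overlap started within 100 kb of each other, both on chromosome 13 and both lower in mother 1. The pair of gmfb (36459567 to 36467786), a glia maturation factor gene, and cdkn3 (36487098 to 36496094) starts 27.5 kb apart, and the pair of morn4 (40620391 to 40628609) and si:ch211-170i2.2 (40628690 to 40682546) starts 8.30 kb apart. For gmfb the eggs of mother 1 measured 8.58, 7.98, 7.98, 7.87 and 7.91, against 8.65 to 10.20 in the others, so that egg 1 lay next to the other clutches. The tables give the position of the gene, and where in the transcript each probe lies was not used here.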

How the data were processed

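Single eggs were hybridized on 24 arrays, 4 to a slide, and the eggs of mother 1 lay on 5 of the 6 slides. The deposited log2 values were made by the authors from the median Cy3 signal by quantile normalization, and repeating that on the deposited scanner intensities (Feature Extraction, from the authors) gave the same values. A probe was tested where its posterior probability of presence passed the study's threshold on at least 4 arrays. The eggs of mother 1 alone can meet this number. Here limma 3.58.1 in R 4.3.3 fitted the mean of each mother over all 24 eggs, with contrasts of mother 1 against the mean of the others and against each, and Benjamini-Hochberg adjustment over the 26751 expressed probes. A probe was without overlap where all eggs of mother 1 lay above, or all below, the other 19. Eggs of a clutch share 1 mother, so p-values measure the spread between sister eggs. The named genes are the 12 widest gaps in each direction among paired genes. For il15l and spg20b the fold sets mother 1 at the lowest signal well above background. It need not be a strict bound, since that level is only the lowest signal that was marked. Gene names and Zv9 positions come from the authors' tables, and columns of their own comparisons were not used. That this clutch was singled out, and which gene lists were read, was decided with earlier results of these data known; the titles then fixed its eggs. On simulated data for the contrast, 97 of 100 genes changed 2-fold and 89 of 100 changed 1.5-fold were recovered, with 8 false calls over 26751 genes. The simulated eggs varied independently around 1 mean per gene, with no differences among the other mothers and no array effects. The false calls therefore give no error rate for the calls on the real eggs. Alternatives covered scaling, filters, blocks, weights and leaving out eggs or mothers. Arrays give no counts, so their number limits the precision. Results on 2 genes are not reported here.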

Additional observations from a re-analysis of the deposited data

Results flagged for a closer look

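Among the 24 named genes, 120 groups of sister eggs were searched for a single egg far from the others, by the gap to the nearest egg as a share of the whole range. Chance marks about 1 in 20 groups of eggs where the genes were not chosen on the same values, and 8 were marked. These genes were chosen for the gap between single eggs, so that rate need not hold here. In mother 1 the only one was spg20b, on which egg 2 was lowest at 6.10, against 6.25 to 6.29 in its sisters (share 0.765), all below the level that counts as well above background. In mother 5, egg 2 was lowest on znhit1 (7.89 against 8.24 to 8.29; share 0.873) and on il15l (7.20 against 7.63 to 7.65; share 0.961), and egg 4 was highest on chchd6b (10.68 against 10.39 to 10.41; share 0.923). In mother 4, egg 1 was lowest on rxrga (share 0.812) and on fbxo25 (share 0.743). Egg 5 of mother 3 was lowest on si:dkey-103k4.1 (share 0.825), and egg 3 of mother 2 was highest on slc37a4b (share 0.711).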

How the results depend on the processing

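The counts below are given in the order of probes past the contrast, apart from each other mother and without overlap, which were 5442, 334 and 188. Centring each array on its median gave 193, 3 and 20 and moved the median of the expressed probes by -0.54, with 15% of the probes without overlap higher in mother 1, against 44.1%; centring on the expressed probes, chosen after seeing the data, gave 2337, 86 and 106, with 65.1% higher. The ratio of Cy3 to Cy5 gave 2386, 111 and 88. Only probes present on all 24 arrays gave 2544, 149 and 84, but out of 16044 tested in place of 26751. Array weights gave 512 probes apart. Scaling to the 75th percentile kept all 3 counts within 1.5 times, but 40.6% of the probes apart were then higher, against 50.6%. With the other 19 eggs pooled as 1 group 891 passed the contrast, and with mother as a random block 33. A fold over 1.5 or over 2 as well left 1101 or 282, and a gap of at least 0.2 or 0.5 left 70 or 23. Without mother 2, 3, 4 or 5 in turn, 649, 512, 552 or 916 probes were apart and 383, 341, 441 or 511 without overlap. Leaving out each egg in turn gave 4260 to 6590 past the contrast, 265 to 471 apart and 190 to 395 without overlap, the highest of each without egg 1 of mother 1.

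No named gene changed direction. Under median centring 14 of the 24 no longer passed, under the random block 9 and under centring on the expressed probes 2. Egg numbers were not taken as pairs. Deviations of eggs with the same number correlated between -0.52 and 0.66 over 46 pairs, 22 of them above 0.1. Their median was 0.06, against -0.01 for eggs with other numbers. Of the 24 eggs, 4 correlated best with an egg of their own number in another clutch. The fit with egg number as a replicate block called 5187 and 309 probes. Leaving out the genes that the study removed was not run, because none of their probes could be matched.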
